A study of Mus musculus with 16 samples.

Results

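The genes described here are 10 transporters that carry glucose or fructose across membranes, namely Slc2a1, Slc2a2, Slc2a3, Slc2a4, Slc2a5, Slc2a8, Slc2a9, Slc2a12, Slc5a1 and Slc5a2. They were chosen by name, as the rows of the count table whose gene identifiers carry these symbols, and they are 10 of the 55385 genes in the table. The table holds 16 short-read RNA-Seq libraries, 1 for each treatment (fed or fasting) of 8 tissues, which were liver, kidney, spleen, lung, heart, muscle, and white and brown adipose tissue. All mice were male and of the C57BL/6 strain, arrived at 12 weeks of age, were kept on chow for at least 10 to 14 days to acclimatize and were killed at 10 am, so that these features are common to both groups and no genotype was changed. The fed group ate freely, and food was withheld from the fasting group over 24 h. Each group had 3 mice, whose tissue was combined ahead of RNA extraction, so that every tissue and treatment is a single pool sequenced once and the values below carry no replicate error. Where 2 libraries are tested against each other, the p-value speaks of those libraries and not of the conditions. In such bulk samples, fewer cells of a type and less RNA per cell cannot be told apart.

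Glucose and fructose cross membranes in mammals through members of SLC2 (the GLUT family), which let hexoses pass down their gradient, and of SLC5 (the SGLT family), which couple hexose entry to sodium. GLUT4 (Slc2a4) is the form that insulin brings to the surface of muscle cells and adipocytes, GLUT1 (Slc2a1) and GLUT3 (Slc2a3) serve basal uptake, and GLUT2 (Slc2a2) is the low-affinity form of hepatocytes and of the basolateral side of the renal tubule. GLUT5 (Slc2a5) is a fructose transporter, GLUT9 (Slc2a9) carries mainly urate, GLUT8 (Slc2a8) sits largely on internal membranes, GLUT12 (Slc2a12) is a further glucose transporter, and SGLT2 (Slc5a2) and SGLT1 (Slc5a1) take glucose back from the filtrate along the proximal tubule. During a fast, insulin falls and muscle, heart and adipose tissue turn from glucose to fatty acids.

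The libraries held 14245178 to 36069968 counts on genes, so that 3 counts, the floor used here, corresponded to 0.0832 to 0.211 CPM (counts scaled to a common library total). Intervals and floors cover counting error only. Each tissue was checked against its defining markers. Summed over 7 adipocyte genes, white adipose tissue had 22520 (fed) and 19877 CPM (fasting) and brown adipose tissue 10081 and 11067 CPM. Summed over 6 proximal tubule genes, the kidney had 17036 and 14195 CPM. The fasting white adipose library stood apart from the fed one. Among 9 genes of epithelial and ciliated cells, listed after the values of this tissue were seen, the sum was 18.9 CPM in fed and 569 CPM in fasting white adipose tissue, and 9 of 9 were called up, with Krt8 (8.54 and 106 CPM) and Hydin (1.20 and 95.4 CPM) the highest in the fasting library. The proximal tubule sum there was 49.5 and 727 CPM, of which Lrp2 made up 34.9 and 710 CPM, and without Lrp2 it was 14.6 and 17.8 CPM. The 7 genes of an epididymis and testis list summed to 9.40 CPM (fed) and 1.82 CPM (fasting). The part of these genes in the other values of white adipose tissue was not tested, and counts of calls are also given without this tissue. Acinar pancreas genes summed to 510 CPM in fed and 0.75 CPM in fasting spleen and to 80.5 and 224 CPM in liver, and skeletal muscle genes to 2578 CPM in fed and 1183 CPM in fasting brown adipose tissue.

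Promoter windows of 300 bases (250 before and 50 after the start), taken from RefSeq on GRCm38.p6, were held for 7 of the 10 genes. Those of Slc2a3, Slc2a4 and Slc5a2 were not matched. The windows of Slc2a1, Slc2a2 and Slc2a5 are shown because the 3 genes have contrasting patterns below. Slc2a1 was above 1 CPM in all 16 libraries, as was Slc2a8, whose window is not shown. Slc2a2 had 248 CPM or more in liver and kidney and at most 1.49 CPM elsewhere. Slc2a5 had the largest response to fasting. The 3 windows lie on the plus strand at chr4:119108495-119108794 (Slc2a1), chr3:28697653-28697952 (Slc2a2) and chr4:150119094-150119393 (Slc2a5). Capitals mark matches on either strand to the letters TATAAA of the TATA box, GGGCGG of the GC box, CACGTG of the E-box, CCAAT of the CCAAT box or GTTAAT of the HNF1 site, with no mismatch allowed.
Slc2a1: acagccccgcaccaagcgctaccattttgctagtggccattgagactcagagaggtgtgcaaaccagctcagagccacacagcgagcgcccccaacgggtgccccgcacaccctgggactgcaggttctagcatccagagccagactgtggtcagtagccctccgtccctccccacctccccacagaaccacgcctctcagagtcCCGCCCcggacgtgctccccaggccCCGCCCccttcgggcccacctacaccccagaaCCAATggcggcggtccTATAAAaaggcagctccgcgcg
Slc2a2: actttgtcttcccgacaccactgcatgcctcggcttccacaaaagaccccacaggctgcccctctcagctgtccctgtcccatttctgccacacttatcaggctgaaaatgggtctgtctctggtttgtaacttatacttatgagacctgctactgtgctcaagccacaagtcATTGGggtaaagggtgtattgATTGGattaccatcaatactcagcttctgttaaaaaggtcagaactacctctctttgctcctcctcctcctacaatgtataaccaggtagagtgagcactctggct
Slc2a5: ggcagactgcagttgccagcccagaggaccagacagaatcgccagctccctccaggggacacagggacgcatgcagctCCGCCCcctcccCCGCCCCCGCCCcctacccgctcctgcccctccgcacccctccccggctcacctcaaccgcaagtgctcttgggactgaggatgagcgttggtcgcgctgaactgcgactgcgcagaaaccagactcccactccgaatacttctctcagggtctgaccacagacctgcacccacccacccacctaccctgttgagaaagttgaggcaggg
The Slc2a1 window held 1 TATAAA, 2 GGGCGG and 1 CCAAT, had 65.3% G and C and contained 18 CpG dinucleotides. The Slc2a5 window had 65.3% G and C, 15 CpG and 3 GGGCGG, of which 2 adjoin each other. The Slc2a2 window had 48.0% G and C, 2 CpG and 2 CCAAT. Over all 32851 windows in the RefSeq set the median was 52.7% G and C and 7 CpG. TATAAA was found in 13.6% of them, GGGCGG in 35.7%, CACGTG in 7.15%, CCAAT in 37.4% and GTTAAT in 7.10%. The window of Slc2a8 held 5 CCAAT, 0 TATAAA and 0 GGGCGG. That of Slc5a1 was the only one of the 7 with CACGTG (1 match). A match describes the letters of a window and not a binding site.

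The tissues differed in which transporter they expressed. A gene was taken as measured in a tissue at a mean of 1 CPM or more over its 2 libraries, which held for 57 of the 80 pairs of gene and tissue. Slc2a1, Slc2a4 and Slc2a8 were measured in all 8 tissues, and Slc5a2 in the kidney only. To compare genes with each other, CPM was divided by the exon length in kilobases. On that scale Slc2a4 made up 92.7% of the summed level of the 10 genes in fed muscle, 90.8% in fed heart, 88.4% in fed brown and 73.3% in fed white adipose tissue. Slc2a2 made up 76.8% in fed liver, and Slc5a2 made up 56.4% in fed kidney, followed by Slc2a2 with 15.3%. In fed spleen Slc2a1 (47.8%) and Slc2a3 (31.3%) led, and in fed lung Slc2a1 (35.7%) and Slc2a12 (16.2%). The summed level was highest in fed kidney, at 281 CPM per kilobase, and lowest in fasting lung, at 24.1.

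**Figure D1:**
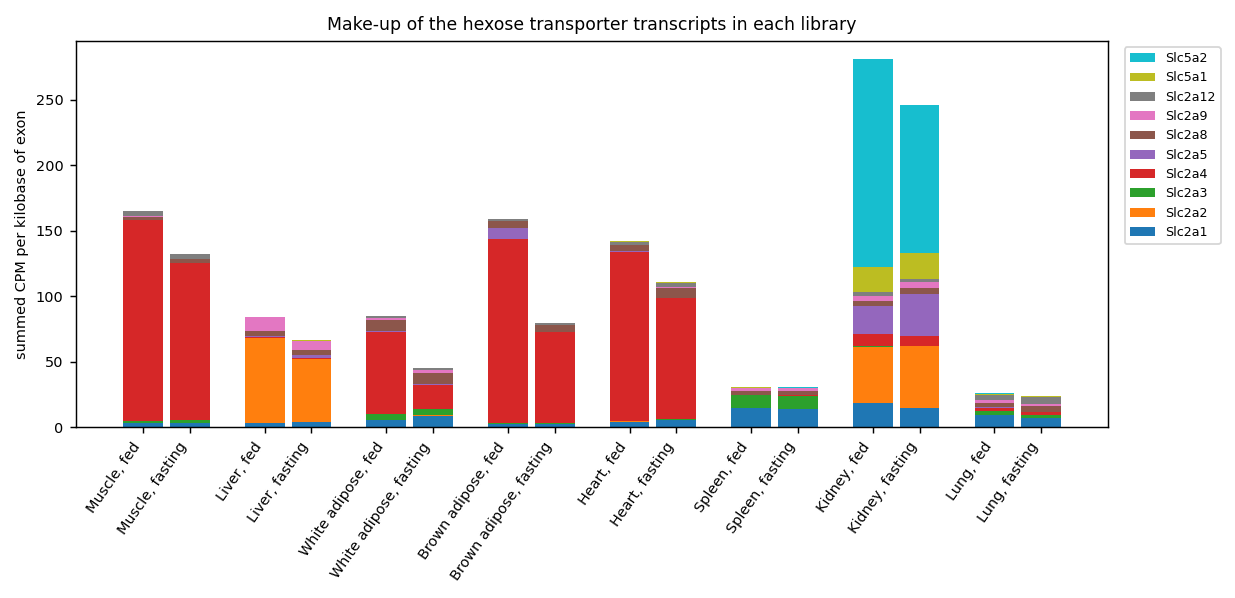
Stacked level of the 10 transporter genes in each of the 16 libraries, in CPM per kilobase of exon (1 library per bar, no error). Slc2a4 forms most of the bars of muscle, heart and fed adipose tissue, Slc2a2 that of liver and Slc5a2 the largest part in kidney, and the white adipose bar goes from 85.2 (fed) to 45.5 (fasting).

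The make-up differed most between the treatments in white adipose tissue. In white adipose tissue the summed level was 85.2 CPM per kilobase (fed) and 45.5 (fasting), and the share of Slc2a4 was 73.3% and 40.2%, while that of Slc2a1 was 6.08% and 19.3%. In brown adipose tissue the sum was 159 and 79.5 CPM per kilobase, with nearly the same share of Slc2a4 (88.4% and 87.1%). In the kidney the sum was 281 and 246, the share of Slc5a2 was 56.4% and 45.9%, and that of Slc2a5 7.50% and 13.1%.

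**Figure D2:**
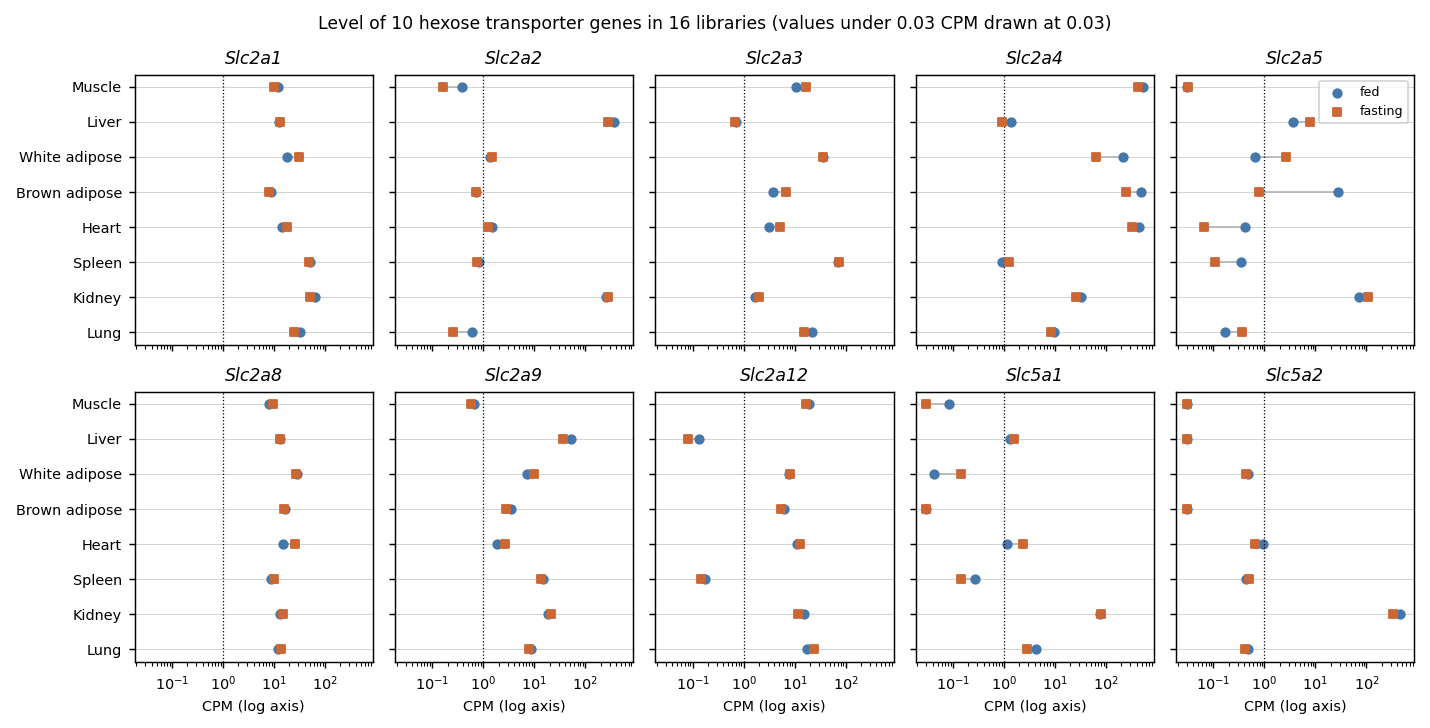
CPM (log axis) of each transporter gene in the fed (circles) and fasting (squares) library of 8 tissues, with the dotted line at 1 CPM. Slc2a5 in brown adipose tissue shows the widest gap among measured pairs, from 27.4 CPM (fed) to 0.772 CPM (fasting).

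To ask which transporters responded to fasting, each tissue's pair of libraries was tested with the two-sided Fisher's exact test. Calls required an unadjusted p-value under 0.01 and a log2 fold change, taken on CPM plus 0.01, of more than 0.5 in either direction. Of the 57 measured pairs, 7 were called up (12.3%) and 4 down (7.02%), beside 7.71% and 9.81% of all measured genes over the 8 tissues, and 46 were not called. In white adipose tissue 2 of 8 measured transporters rose and 1 fell, where 18.9% of all measured genes were called up and 9.14% down. In brown adipose tissue 1 of 7 rose and 2 fell (8.71% up and 12.2% down among all genes). In muscle 1 of 5 rose and 0 fell (7.80% and 16.2%), in liver 1 of 7 rose and 0 fell (7.15% and 15.8%), in heart 1 of 8 rose and 0 fell (6.88% and 9.65%), and in kidney 1 of 10 rose and 0 fell (4.35% and 6.10%). In lung 0 of 7 rose and 1 fell (4.17% and 9.82%), and in spleen 0 of 5 were called (3.53% and 2.14%). Without white adipose tissue 5 of 49 measured pairs were called up and 3 down, beside 5.94% and 9.91% of all measured genes in the other 7 tissues.

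The call depends on how much 2 pools may vary. With edgeR's exact test, when the coefficient of variation between libraries was set to 0.2, 1 pair was called up (Slc2a5 in white adipose tissue) and 2 down (Slc2a4 in white and Slc2a5 in brown adipose tissue), beside 2.45% up and 1.88% down among all measured genes. With 0.4, 0 pairs were called up and 1 down, Slc2a5 in brown adipose tissue (p = 9.07e-07, edgeR's exact test), beside 0.888% up and 0.243% down.

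**Figure D3:**
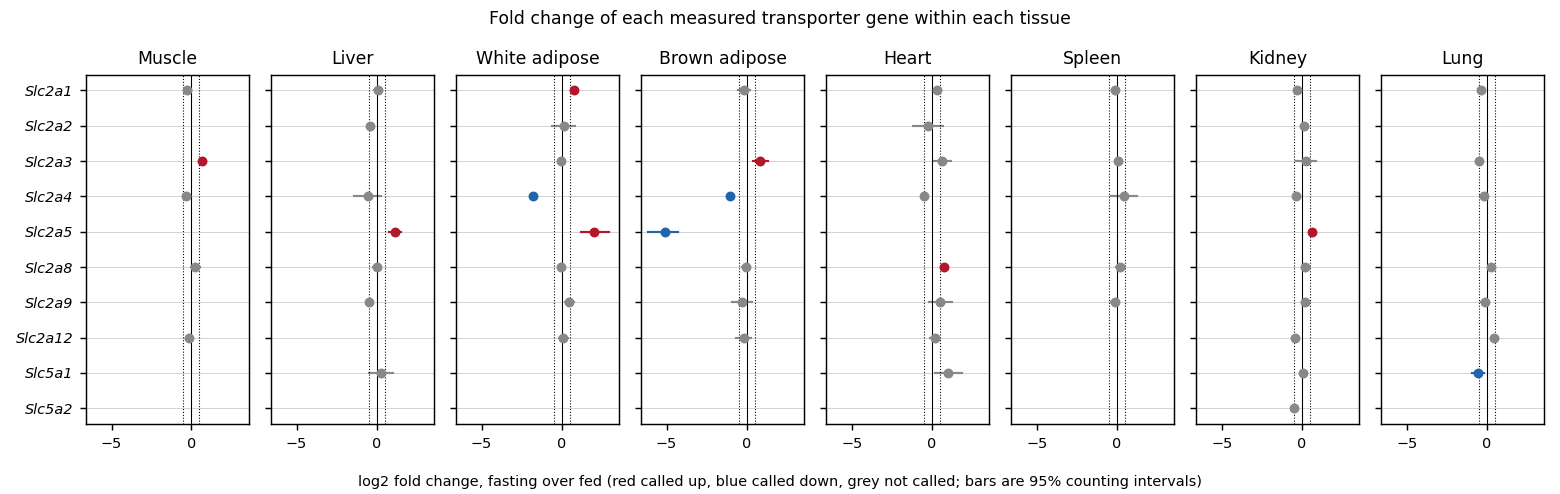
Log2 fold change (fasting over fed) of each measured transporter gene in 8 tissues, with 95% intervals from the counts alone and dotted lines at 0.5 in size. Red marks the 7 pairs called up, blue the 4 called down and grey the 46 not called, and most points lie between the dotted lines.

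Slc2a4, the insulin-responsive transporter on chromosome 11 (69942539 to 69948188, minus strand, GRCm38), was lower in the fasting library of each tissue in which it was abundant. It fell from 217 CPM in fed to 63.5 CPM in fasting white adipose tissue, a log2 fold change of -1.77 (95% counting interval -1.85 to -1.69), and from 489 CPM to 241 CPM in brown adipose tissue (-1.02, interval -1.08 to -0.97). These are 3.42-fold and 2.03-fold lower levels. The fall in white adipose tissue was the 97th lowest log2 fold change among 16845 measured genes, and that in brown adipose tissue the 763rd lowest among 14853. In white adipose tissue the adipocyte genes summed to 22520 and 19877 CPM, with Cfd (8052 and 6800 CPM) and Fabp4 (5635 and 6208 CPM) the highest. Of these 7 genes 3 were called down and 0 up, with a median of -0.24, and the epithelial genes summed to 18.9 and 569 CPM. In brown adipose tissue the adipocyte sum was 10081 and 11067 CPM (4340 and 4440 CPM without Fabp4) and the brown adipocyte sum 5990 and 5261 CPM. Of the 7 adipocyte genes 2 were called down and 1 up there (median -0.27). Of the 6 brown adipocyte genes 0 were called down and 1 up (median -0.22). Skeletal muscle genes, whose tissue is the highest site of Slc2a4, were called down there in 8 of 8 cases (median -1.26), and their sum was 2578 and 1183 CPM. Fibroblast genes were called down there in 4 of 6 cases (median -0.65), with sums of 1275 and 797 CPM. The part of these cells in both falls was not tested.

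In the other tissues Slc2a4 was not called. Muscle had 533 CPM (fed) and 418 CPM (fasting), with a log2 fold change of -0.35. Heart had 449 and 321 CPM (-0.48), which passed the threshold, at -0.51, only where mitochondrial genes and the 10 highest genes were left out of the library size. Kidney had 32.8 and 25.5 CPM (-0.36), and lung 9.61 and 8.34 CPM (-0.20). Liver (1.35 and 0.921 CPM, -0.54, Fisher's exact p = 0.175) and spleen (0.927 and 1.26 CPM, 0.44) had few counts, 21 to 35 per library. The fasting value was lower in 7 of 8 tissues, spleen being the exception. The median log2 fold change of all measured genes was also negative in muscle (-0.14), liver (-0.13), lung (-0.09), heart and kidney (-0.06 each). It was -0.02 in brown adipose tissue and in spleen, and 0.06 in white adipose tissue. From the lowest, Slc2a4 ranked 3946th of 13263 genes in muscle, 2128th of 14690 in heart, 2174th of 15621 in kidney and 5530th of 17175 in lung. In descending order of the mean, muscle overlapped with heart and heart with brown adipose tissue in the range of their 2 libraries, and white adipose tissue, kidney and lung stood apart from their neighbours.

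Slc2a5, the fructose transporter on chromosome 4 (150119283 to 150144169, plus strand), was called in all 4 tissues where it was measured, down in 1 and up in 3. White adipose tissue passed the level limit only through its fasting library (0.644 CPM fed, 2.63 CPM fasting), and brown adipose tissue only through its fed library. In these 2 tissues being measured and being called are therefore tied together, and the count of 4 is no separate result. In brown adipose tissue it fell from 27.4 CPM (455 counts) to 0.772 CPM (11 counts), 35.0-fold lower, with a log2 fold change of -5.13 (counting interval -6.16 to -4.30, Fisher's exact p = 6.06e-105). With a pseudocount of 1 CPM the log2 fold change was -4.00. The value of -5.13 was the 4th lowest among the 14853 genes measured there, after Usf2-ps1, Rnu2-10 and Gbp10, and it was followed by Fer1l6 (398 and 11 counts). These neighbours in rank were named after their values were seen. The fed brown adipose level was thus the second site of Slc2a5 after the kidney, and the fasting level was below 1 CPM. Skeletal muscle genes also differed between the brown adipose libraries (2578 and 1183 CPM, against 148096 CPM in fed muscle). In muscle itself Slc2a5 had 0 counts (fed), where the floor is 0.125 CPM, and 0.0323 CPM (fasting). The proximal tubule genes summed to 3.31 and 2.67 CPM and the epithelial genes to 4.09 and 4.07 CPM in brown adipose tissue. Fibroblast genes summed there to 1275 and 797 CPM, with 4 of 6 called down and 0 up (median -0.65). The part of other cell types in the fall was not tested.

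In the kidney, its main site, Slc2a5 rose from 71.6 to 109 CPM (log2 fold change 0.61, interval 0.52 to 0.70). Of 4 genes of the proximal straight tubule, the segment known for this transporter, 2 were called up and 0 down, with a median log2 fold change of 0.40. Their sum was 1592 and 1529 CPM, and 461 and 637 CPM without the highest, Slc7a13 (1131 and 892 CPM), with Cyp7b1 (255 and 371 CPM) next. Their part in the rise of Slc2a5 was not tested. In liver Slc2a5 rose from 3.56 to 7.89 CPM (1.15, interval 0.77 to 1.54), on 82 and 197 counts. Acinar pancreas genes moved the same way in liver, where 8 of 8 were called up with a median of 1.51, while islet genes summed to 6.08 and 0.641 CPM, and their part in the rise was not tested. In white adipose tissue it rose from 0.644 to 2.63 CPM (2.01, interval 1.21 to 2.94, and 1.14 with a pseudocount of 1 CPM), on 15 and 72 counts. That rise goes along with the epithelial genes of the fasting white adipose library (18.9 and 569 CPM), and their part in it was not tested. Heart (0.407 and 0.0655 CPM), spleen (0.353 and 0.108 CPM) and lung (0.166 and 0.360 CPM) were under 1 CPM.

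**Figure D4:**
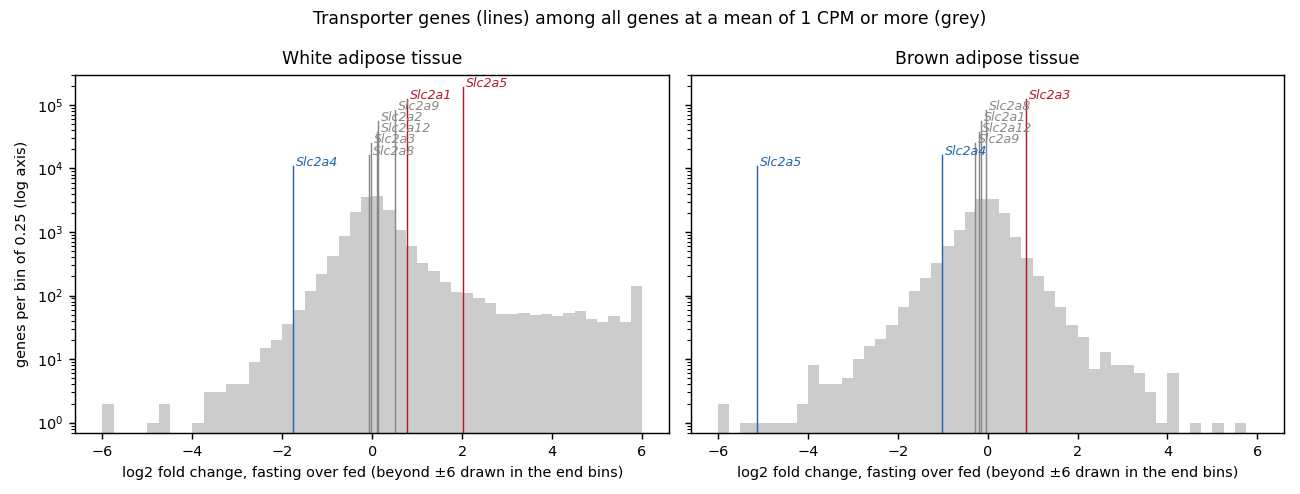
Number of genes (log axis) per bin of 0.25 in log2 fold change (fasting over fed) among all measured genes of white and brown adipose tissue (grey), with the measured transporters as lines (red called up, blue called down, grey not called). Slc2a5 lies at the far left edge in brown adipose tissue (-5.13) and right of the centre in white adipose tissue (2.01), where the grey distribution has a long right tail.

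Of the basal glucose transporters, Slc2a1 on chromosome 4 (119108711 to 119137983, plus strand) was highest in kidney (64.7 CPM fed, 51.5 CPM fasting) and spleen (51.0 and 47.5 CPM). Lung (32.2 and 25.0 CPM) and white adipose tissue overlapped in their ranges, and brown adipose tissue was lowest (8.85 CPM fed). Its only call was in white adipose tissue, where it rose from 18.2 to 30.8 CPM (log2 fold change 0.76, interval 0.59 to 0.93), beside the epithelial genes (18.9 and 569 CPM), whose part in this was not tested. Heart had 14.5 and 18.3 CPM (0.34), muscle 288 and 310 counts (-0.26) and liver 12.4 and 13.1 CPM (0.08). Slc2a1 shares 105 bases of exon with Gm12868 on the other strand, which did not exceed 0.0442 CPM in any library.

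Slc2a3, the high-affinity transporter on chromosome 6 (122727809 to 122801640, minus strand), was highest in spleen (69.1 and 74.4 CPM) and then in white adipose tissue (36.2 and 35.3 CPM). It rose in muscle from 10.7 to 16.8 CPM (0.66, interval 0.44 to 0.88, Fisher's exact p = 1.11e-09) and in brown adipose tissue from 3.79 to 6.81 CPM (0.84, interval 0.37 to 1.33, exact p = 3.3e-04). Macrophage genes, from cells known to use this transporter, summed to 81.2 and 68.3 CPM in muscle and to 150 and 131 CPM in brown adipose tissue, with 0 of 7 called in either, and their part in the rises was not tested. In heart it had 3.19 and 5.05 CPM (0.66), but the exact p of 0.0112 missed the threshold. It met the threshold under TMM scaling (0.72) and under DESeq2 scaling (0.71). Lung had 21.4 and 15.2 CPM (-0.49), just short of a call. B cell genes there summed to 202 and 104 CPM and T cell genes to 62.6 and 18.4 CPM. Macrophage genes summed to 391 and 380 CPM in lung, with 0 of 7 called. Neutrophil genes summed there to 132 and 199 CPM, with 3 of 7 measured called up and 3 down. The part of these cells in the lung value was not tested.

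Slc2a2, the hepatocyte and tubule transporter on chromosome 3 (28697903 to 28731359, plus strand), was not called in any of the 4 tissues where it was measured. Liver had 372 CPM (fed) and 278 CPM (fasting), a log2 fold change of -0.42 (interval -0.46 to -0.37), and kidney 248 and 272 CPM (0.13, interval 0.08 to 0.19). The intervals of both organs leave out 0 on counting error alone. White adipose tissue (1.37 and 1.49 CPM) and heart (1.45 and 1.25 CPM) were just above 1 CPM. In liver, the TMM factors moved every log2 fold change by 0.12, and Slc2a2 then had -0.29.

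Slc2a9, the urate transporter on chromosome 5 (38349273 to 38503143, minus strand), was highest in liver, with 51.4 and 36.9 CPM (-0.48, interval -0.61 to -0.35; -0.36 with TMM factors). Kidney had 18.4 and 21.3 CPM (0.21), spleen 15.0 and 13.7 CPM (-0.12) and white adipose tissue 7.08 and 9.99 CPM (0.50, under the threshold by less than 0.01). It was not called in any of 7 tissues. In liver, therefore, the 2 most abundant transporters were both lower in the fasting library by less than the threshold, while the hepatocyte genes summed to 106013 and 102571 CPM. Without the highest, Alb, that sum was 42251 and 50435 CPM. Of the 8 hepatocyte genes 3 were called up and 2 down (median 0.36), and their part in the 2 values was not tested.

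Slc2a8, the internal-membrane transporter on chromosome 2 (32972990 to 32982083, minus strand), had the most even levels, from 7.93 CPM in fed muscle to 28.2 CPM in fed white adipose tissue. It rose in heart from 14.7 to 25.6 CPM (0.80, interval 0.57 to 1.03), and cardiomyocyte genes summed there to 54988 and 49867 CPM. In the same libraries hepatocyte genes summed to 30.6 and 97.1 CPM (6 of 6 measured called up, median 1.83), and adipocyte genes to 374 and 832 CPM, nearly all of it Fabp4 (370 and 831 CPM). Skeletal muscle genes summed to 2356 and 2277 CPM, with 5 of 8 called up (median 0.62). The part of these genes in the rise was not tested. In the other 7 tissues its log2 fold change lay between -0.06 (white adipose) and 0.24 (lung), with no call. Slc2a12, on chromosome 10 (22645011 to 22704285, plus strand), was highest in lung (17.7 and 23.7 CPM, 0.42) and muscle (18.8 and 16.9 CPM, -0.15), whose ranges overlapped, and was under 0.2 CPM in liver and spleen. It was not called in any of 6 tissues, and kidney had 15.2 and 11.4 CPM (-0.41). Of its exon length, 9.61% overlaps Tbpl1 on the other strand (up to 35.9 CPM), so some of its counts could belong to that gene if strand was not used in counting.

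The sodium-coupled transporters were genes of the kidney. Slc5a2, on chromosome 7 (128265657 to 128272430, plus strand), had 459 CPM in fed and 327 CPM in fasting kidney, a log2 fold change of -0.49 (interval -0.53 to -0.45) that fell short of the threshold. The proximal tubule genes there summed to 17036 and 14195 CPM, with Lrp2 (8220 and 6935 CPM) and Slc34a1 (5066 and 3266 CPM) the highest. Of these 6 genes 1 was called down and 0 up, with a median log2 fold change of -0.11, and their part in the value was not tested. In heart, spleen, white adipose tissue and lung it had 0.416 to 0.929 CPM, and in muscle, liver and brown adipose tissue 0 counts, which allows up to 0.0970 to 0.211 CPM. BC017158, on the other strand, shares 597 bases with it (20.6% of its length) and reached 38.7 CPM. Slc5a1, on chromosome 5 (33104219 to 33162870, plus strand), had 77.5 and 81.1 CPM in kidney (0.07). In lung it fell from 4.16 to 2.83 CPM (-0.55, interval -0.95 to -0.17, Fisher's exact p = 0.00408). That call was lost with a pseudocount of 1 CPM (-0.43), with TMM factors (-0.48) and under DESeq2 scaling. Lung epithelium genes summed to 25743 and 26928 CPM in the same libraries and cardiomyocyte genes to 1200 and 636 CPM, and their part in the fall was not tested. In heart Slc5a1 had 1.16 and 2.36 CPM (1.02) on few counts, with an exact p of 0.0107. It was called up there under TMM scaling (1.07), under DESeq2 scaling (1.07) and by the adjusted p, and brown adipose tissue had 0 counts in both libraries.

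To ask whether a transporter moved the same way across tissues, edgeR's quasi-likelihood test was run on the 16 libraries together in a model of treatment and tissue. The 8 tissues of a treatment are from 1 pool of animals each time, and so are no independent replicates. Of the 10 transporters, 0 were called up and 0 down at a Benjamini-Hochberg adjusted p under 0.05, beside 2.31% up and 2.08% down among 17296 genes, and DESeq2's Wald test also called 0. In edgeR's test 2 had an unadjusted p under 0.05. Slc2a4 had a log2 fold change of -0.57 (standard error 0.21, adjusted p = 0.13 from edgeR) and Slc2a8 of 0.24 (standard error 0.10, adjusted p = 0.196 from edgeR). Without white adipose tissue Slc2a4 had -0.37, and without both adipose tissues -0.23. Slc2a8 had 0.15 without heart, 0.36 without both adipose tissues and 0.22 to 0.30 without any 1 of the other tissues. Slc2a5 had 0.0086 with a standard error of 0.70, the largest standard error of the 10.

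Genes that work with these transporters were then described by lists, each counted over measured pairs of gene and tissue and read beside 7.71% up and 9.81% down among all genes. Counts without white adipose tissue follow each list, to be read against the 5.94% up and 9.91% down of those 7 tissues. Of a list of hexose kinase genes, whose products act on the sugar that has entered, and 1 gene for a protein that regulates such a kinase, 13 of 39 pairs fell (33.3%) and 4 rose (10.3%), or 12 and 2 of 34 without white adipose tissue. In liver 4 of 6 fell and 0 rose, beside 15.8% down and 7.15% up among all genes measured there. The median log2 fold change of the 6 was -0.82, beside -0.13 over all measured genes. Hk2, the hexokinase of muscle and fat, fell in 4 tissues. It went from 373 to 253 CPM in muscle, from 490 to 209 CPM in heart, from 192 to 78.0 CPM in white adipose tissue and from 26.3 to 18.2 CPM in spleen. The call in muscle (-0.56) was lost under TMM and DESeq2 scaling (-0.48 in both). Across tissues its log2 fold change was -0.46 (adjusted p = 0.19, edgeR's quasi-likelihood test). Khk, the fructokinase that acts after fructose entry, fell in liver from 242 to 123 CPM and rose in white adipose tissue (10.7 to 29.2 CPM), heart (9.99 to 16.1 CPM) and lung (11.5 to 16.7 CPM). In brown adipose tissue, where Slc2a5 fell, Khk had 13.7 and 15.9 CPM, and in kidney, where Slc2a5 rose, 424 and 393 CPM.

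Of 13 regulators of glucose transport or of these genes, 23 of 93 pairs rose (24.7%) and 8 fell (8.60%), or 18 and 6 of 80 without white adipose tissue. Most of the 23 came from Txnip (8) and Klf15 (6), so the share does not describe the list as a whole. Txnip, an arrestin-like protein that promotes removal of GLUT1 and GLUT4 from the surface, rose in 8 of 8 tissues, from 847 to 1474 CPM in muscle as the smallest log2 fold change (0.80) to 447 and 2260 CPM in heart as the largest (2.34), and its value across tissues was 1.39 (standard error 0.16, adjusted p = 0.00324, edgeR's quasi-likelihood test). Klf15, a transcription factor that raises Slc2a4 in muscle and fat cells, rose in 6 tissues, among them brown adipose tissue (33.5 to 67.7 CPM), where Slc2a4 fell. Its value across tissues was 0.94 (adjusted p = 0.0107, edgeR's test). Mlxipl, the glucose-sensing factor ChREBP, fell in muscle, liver and both adipose tissues, from 318 to 124 CPM in liver, and had -0.57 across tissues (adjusted p = 0.0494, edgeR's test). Hnf4a, a factor of liver and tubule, rose in liver (620 to 964 CPM), in spleen (1.46 to 2.66 CPM) and in white adipose tissue (2.53 to 58.3 CPM), there beside the epithelial genes (18.9 and 569 CPM).

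**Figure D5:**
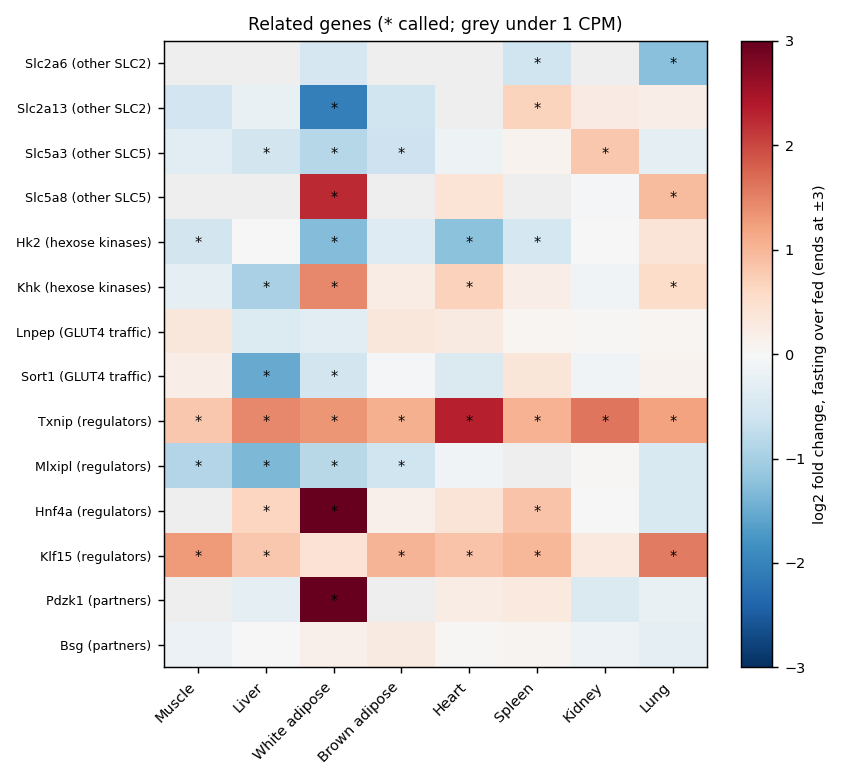
Log2 fold change (fasting over fed) of 14 related genes in 8 tissues, with an asterisk where called and grey where the mean was under 1 CPM. The colour scale ends at 3 in size, Txnip is red in all 8 tissues, and Hnf4a and Pdzk1 are darkest in white adipose tissue.

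Of genes that store and move GLUT4, 4 of 104 pairs were called up (3.85%) and 5 down (4.81%). Without white adipose tissue these counts were 3 and 3 of 91. Lnpep, the aminopeptidase of GLUT4 vesicles, was not called in any tissue, and white and brown adipose tissue had 643 and 519 CPM and 476 and 605 CPM. Sort1, which builds these vesicles, fell in liver from 73.1 to 25.6 CPM and in white adipose tissue from 844 to 572 CPM. Of other SLC2 genes 1 of 16 pairs rose (6.25%) and 4 fell (25.0%), or 1 and 2 of 13 without white adipose tissue. Slc2a13, the proton-coupled inositol transporter, fell in white adipose tissue from 52.6 to 12.7 CPM, and Slc2a6 fell in lung (5.69 to 2.38 CPM) and spleen (20.4 to 13.5 CPM). Of other SLC5 genes 7 of 29 pairs rose (24.1%) and 5 fell (17.2%), or 4 and 4 of 24 without white adipose tissue. With TMM factors the 5 called down became 2. Slc5a3, the sodium-coupled inositol transporter, rose in kidney from 493 to 859 CPM and fell in liver, white and brown adipose tissue. The liver call (-0.56) was lost under TMM and DESeq2 scaling (-0.43 in both). Slc5a8, a monocarboxylate transporter, rose in white adipose tissue (0.730 to 3.46 CPM) and lung (3.53 to 6.82 CPM). Of partner genes 7 of 47 pairs rose (14.9%) and 2 fell (4.26%), or 3 and 2 of 40 without white adipose tissue. Pdzk1, a scaffold of the tubule's brush border, rose in that tissue from 2.19 to 43.3 CPM, beside the epithelial genes, while Bsg, a chaperone of monocarboxylate transporters, was not called in any tissue.

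The genes most like each transporter over the 16 libraries were taken by Pearson's correlation of log2(CPM + 1) among 13224 genes with a mean of 5 CPM or more. The 2 libraries of a tissue share most of their pattern, so the 16 points are not independent. Slc5a2 went with Slco1a6 (r = 0.9996) and Slc14a2 (0.998), genes highest in kidney, and Slc5a1 with Cldn8 (0.968) and Slc26a4 (0.967). Slc2a2 went with F13b (0.997) and Slc26a1 (0.997), and Slc2a9 with Slc35d2 (0.988) and Erg28 (0.986). Slc2a4 went with Acyp2 (0.965) and Nol3 (0.964), Slc2a1 with Cyba (0.966) and Epb41l3 (0.955), Slc2a3 with Rasa4 (0.959) and Dock11 (0.938), and Slc2a12 with Zfp641 (0.960) and Arl3 (0.946). Slc2a5 had less close neighbours in Cryz (0.923) and Bpnt1 (0.907), and Slc2a8 had Mt2 (0.902) and Mt1 (0.868), whose levels were highest in fasting heart.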

How the data were processed

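The authors made strand-specific libraries from pooled tissue, sequenced paired-end reads of 100 bases, and processed them, per the study's methods and the submitters' processing notes, with fastp 0.23.2, FastQC 0.11.8, HISAT2 2.2.1.0 on GRCm38 and featureCounts (Subread 2.0) on GENCODE mouse release 24. They deposited raw counts per gene and library, together with each gene's length (an other value). Whether read pairs and strand were used in counting is not given in the sources used here. Of 55385 identifiers, 55144 matched a symbol in GENCODE release 21.

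CPM used library totals. Calls within a tissue used Fisher's exact test, with log2(CPM + 0.01), a log2 fold change above 0.5 and p under 0.01, among genes at a mean of 1 CPM or more. Across tissues, edgeR 4.0.16 fitted tissue and treatment to 17296 genes (TMM, filterByExpr by treatment, 7 residual degrees of freedom, coefficient of variation 0.1956). Both steps were tested on simulated data. For Fisher's exact test these were Poisson counts with no variation between pools, so that test does not cover such variation. Alternatives covered the pseudocount, scaling (TMM, DESeq2 1.42.0), thresholds, filters, edgeR's exact test with assumed variation, DESeq2's Wald test and left-out tissues. Python 3.11.15, R 4.3.3, numpy 2.4.6, pandas 2.3.3, scipy 1.17.1 and matplotlib 3.10.9 were used.

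The members and lists were chosen with earlier results of these data known. Named related genes were those called in 1 direction in at least 4 tissues and the 2 highest of each list. For markers they were the 2 highest in a library, and for similar patterns the 2 closest genes. One partner gene, Smim43, was not matched.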

Additional observations from a re-analysis of the deposited data

Results flagged for a closer look

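Slc2a5 was called in opposite directions in different tissues. Its log2 fold change between the fasting and the fed library was -5.13 in brown adipose tissue, against 1.15 in liver, 2.01 in white adipose tissue and 0.61 in kidney. The white adipose pair passed the level limit only through its fasting library and the brown adipose pair only through its fed library. With 1 library per tissue and treatment the difference between tissues was not tested. No other of the 10 transporters had calls both ways at the thresholds used for the report, and with an adjusted p in their place Slc5a1 was called up in heart (1.02) and down in lung (-0.55).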

How the results depend on the processing

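Of 57 gene and tissue pairs, 54 to 57 kept their direction and their side of the threshold under another pseudocount, under each of 3 other library scalings, with an adjusted p and without a filter on level, and none of the 57 turned its direction within a tissue. The thresholds and the assumed variation moved the counts most. In place of 7 pairs called up and 4 down, a log2 fold change above 1 gave 2 up and 3 down, a coefficient of variation of 0.2 gave 1 up and 2 down, and one of 0.4 gave 0 up and 1 down. A mean of at least 5 CPM gave 6 up and 3 down, and leaving out white adipose tissue, chosen after seeing the data, gave 5 and 3. Across tissues, 0 transporters were called under each alternative, the filter by the design matrix, added after seeing the data, and each tissue left out in turn (0 to 0, of 8 to 10 that passed the filter) included. The TMM factors moved every log2 fold change by 0.12 in liver and by -0.11 in white adipose tissue. With TMM factors the pairs of other SLC5 genes called down went from 5 to 2. The fit across tissues pairs the fed and the fasting library by tissue, and without the tissue block it also called 0. Differences between tissues then count as residual spread, and each transporter had an adjusted p of 0.99998 (edgeR's quasi-likelihood test). That 0 therefore says nothing on how stable the result is. Slc2a5 had 0.0086 across tissues, but -0.0256 with library totals alone, -0.0705 with DESeq2's Wald test, -0.0884 to 0.105 with muscle, heart, spleen or lung left out, and 0.276 without the tissue block, and the cause was not tested. Without any 1 of the other tissues it did not pass the filter on low counts. Depth limits the low pairs: Slc2a5 in white adipose tissue rests on 15 and 72 counts.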
